A study of Gallus gallus with 12 samples.

Results

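The regions described here are 966 stretches of open chromatin that the chicken embryonic eye used in both dorsal retina and optic fissure margin (OFM), but that stood higher in the dorsal lists at both stages studied. They were taken from 127749 regions obtained by merging overlapping peaks of 4 peak lists. Of those, 77405 held a peak in every list and 72877 of these lay on chromosomes 1 to 28. In each list the peaks were ordered by the authors' area score, taken here as a value summed over the width of a peak. Each peak was given a percentile from 0 (lowest score) to 100 (highest score). A region was kept when its best dorsal peak stood at least 10 percentile points above its best OFM peak at both stages, and when neither tissue moved by 10 points or more between stages. The regions were thus chosen by the percentiles and differences given below, which are a description, with no test.

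The vertebrate retina is patterned early along its dorsal to ventral axis. In chick and mouse, BMP signalling and T-box factors mark the dorsal side, while VAX and PAX2 factors mark the ventral side, where the optic fissure forms and must close for the eye to be complete. Open chromatin marks promoters, enhancers and other bound DNA. In bulk tissue a weaker signal can come from fewer cells that use a site or from less access in each cell, and these cannot be told apart.

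The study profiled OFM and dorsal retina at Hamburger-Hamilton stages 30 (HH30) and 34 (HH34) by omni-ATAC-seq, in which the transposase Tn5 cuts accessible DNA of isolated nuclei. All 4 groups came from wildtype Hy-Line embryos, with 3 libraries per group. Each library used tissue pooled from 10 embryos, and 50000 cells were counted for it. Libraries were read as 75 bp pairs, and the stages used different embryos. Per the labels, peaks were called on the libraries of a group together, so each group has 1 list (101452 to 108689 peaks) and no value per library. No difference between lists could be held against a replicate spread, no p-value was computed, and the tissue labels were not checked against marker genes, because no gene annotation of this genome build was used. Coordinates are those of the lists, in the build GRCg6a (galGal6) named in the submitters' processing notes.

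Among shared regions, a 10-point lead of dorsal retina was common at 1 stage and less so at both. At HH30, 8969 of 72877 shared regions (12.3%) had it, and at HH34 4746 did (6.51%). At both stages 2802 regions (3.84%) had it, and the limit on movement between stages left 966 (1.33%). A steady rank between stages in both tissues was seen in 59.1% of shared regions. With the tissues exchanged, 9.04% of shared regions led in OFM at HH30, 14.0% at HH34 and 5.82% at both, and the full rule kept 1417 OFM-higher regions (1.94%). That gap narrowed when list length was made equal. With all lists shortened to the length of the shortest, the rule kept 1123 dorsal-higher and 1233 OFM-higher regions.

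The limit on movement removed 1836 regions that led in dorsal retina at both stages. Of these, 1096 moved by 10 points or more in both tissues, 785 of them upward in both and 304 downward in both. A further 529 moved in OFM alone and 211 in dorsal retina alone. Most regions with a dorsal lead at both stages thus moved by 10 points or more in at least 1 tissue, and the 966 are those with a steady rank.

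The dorsal-higher regions were of middle strength in dorsal retina and weak in OFM. Their median percentile was 50.2 in the dorsal list at HH30 and 50.7 at HH34, against 31.0 and 32.2 in the OFM lists. For all shared regions the medians lay between 60.4 and 62.7 in the 4 lists. The median dorsal lead was 16.4 points at HH30, with an interquartile range of 13.0 to 21.1, and 15 points at HH34, with a range of 12.2 to 19.9. Over all shared regions the median difference was −0.0061 points at HH30 and −0.578 at HH34. In 727 of the 966 (75.3%) the OFM percentile was under 50 at both stages, and in 88 (9.11%) it was under 10. There were 214 regions (22.2%) that lay in the upper 50% of both dorsal lists and in the lower 50% of both OFM lists. These counts follow in part from the rule, which asks for a lower OFM than dorsal percentile. The same shares over all shared regions are not given here. For those regions the lower quartile in the OFM lists was 40.6 at HH30 and 40.5 at HH34.

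**Figure D1:**
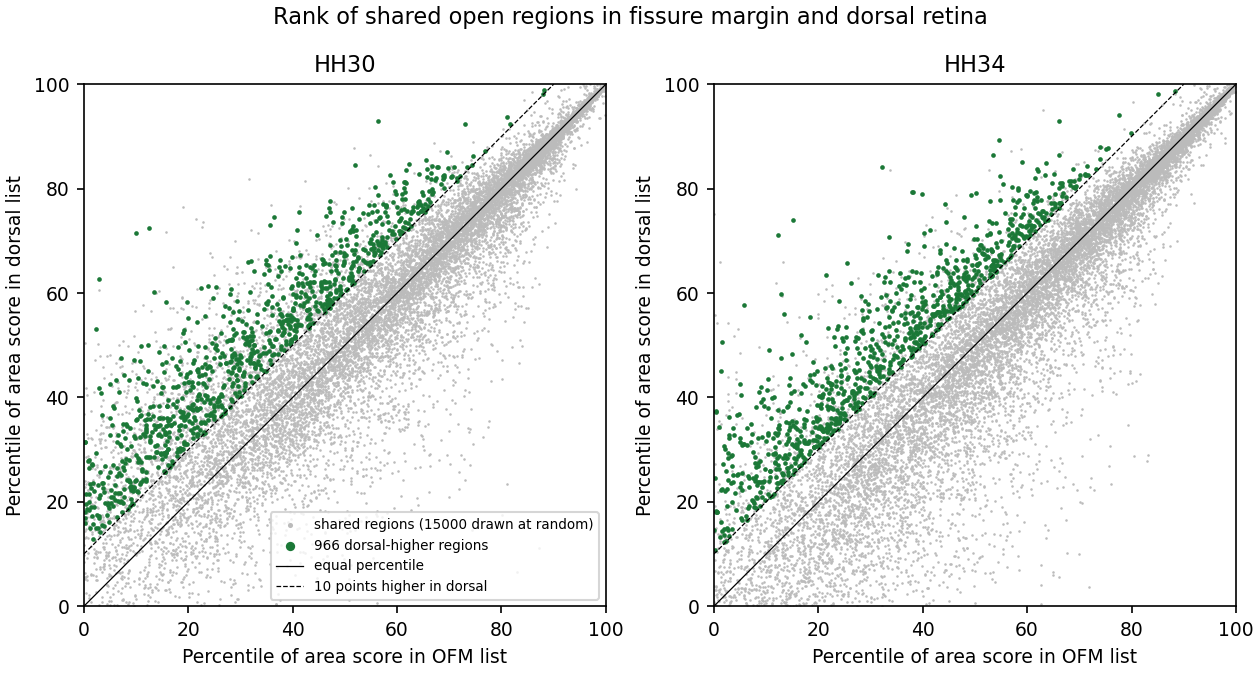
Each point is a region with a peak in all 4 lists, placed by the percentile of its best peak in the OFM list (x axis) and in the dorsal list (y axis), at HH30 on the left and HH34 on the right. The 966 dorsal-higher regions (green) lie above the dashed line by the rule that chose them, and thin out towards the upper right, over 15000 shared regions drawn at random (grey).

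Large leads were few. Of the 966, 367 had a lead of at least 15 points at both stages, 162 of at least 20, 33 of at least 30 and 6 of at least 40. Among the 1417 OFM-higher regions the same steps held 710, 382, 107 and 26. The share of shared regions that met the rule also varied with their mean percentile over the 4 lists. Up to 10, 1.85% (9 of 487) were dorsal-higher, and between 10 and 20 3.18% were. The share was 1.86% between 40 and 50, 0.603% between 70 and 80, and 0.0207% (2 of 9650) above 90. The spread of the tissue difference over shared regions had another course at low percentiles. Its SD at HH30 was 11.5 points between 10 and 20 and 14.5 between 30 and 40. Above 40 the share and the SD fell together, the SD to 1.22 above 90. There the percentile scale left little room for a 10-point lead. Regions above 90 met the rule least often, OFM-higher regions as well (3.66% between 10 and 20, and 0 of 9650 above 90).

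The lead was also seen in other columns of the same peaks, which are not independent of the area score. The authors' −log10 q at the summit had a median of 7.35 in dorsal retina and 5.38 in OFM at HH30, and of 7.40 and 5.39 at HH34. When regions were ranked by q in place of area, 954 of the 966 (98.8%) stood higher in dorsal retina at both stages, and 769 (79.6%) by at least 10 points. The peaks were also wider there. In the dorsal list 956 of 966 were wider at HH30 and 944 at HH34, with a median width ratio of 1.20 and 1.19. Over all shared regions 46.1% and 41.3% were wider in dorsal retina, with median ratios of 0.998 and 0.994. The median width of the 966 in the dorsal lists was 403 bp at HH30 and 401 bp at HH34, against 297 bp in each OFM list, and all shared regions had medians of 454 to 487 bp. Area per base is the area score divided by the called width, so it still depends on where a peak was cut. Ranked by it, 782 (81.0%) stood higher in dorsal retina at both stages, 604 (62.5%) by at least 10 points, and 49 stood lower at both.

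Summits of the tissues coincided in most of the regions. At HH30, 876 of 966 (90.7%) had dorsal and OFM summits at most 50 bp apart, with a median distance of 4 bp, and at HH34 869 did. Among all shared regions the shares were 92.2% and 91.9%. Most of the regions thus had the same centre in both tissues.

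The 12 regions with the largest steady lead, by the smaller of their leads at the 2 stages, lay on 7 chromosomes. The first, chr2:10816351-10817119, had OFM percentiles of 12.6 (HH30) and 12.3 (HH34), against 72.5 and 71.0 in the dorsal lists. The −log10 q of the region was 4.12 and 4.18 in OFM and 9.91 and 10.6 in dorsal retina. Its dorsal peak was 769 bp wide at HH30 and its best OFM peak 200 bp. The second, chr5:15639673-15640444, stood at 9.92 and 15.2 in OFM and at 71.6 and 73.9 in dorsal retina. Both were near the floor of the OFM lists and among the upper 30% of the dorsal lists.

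The second region also had the largest lead of the 12 in area per base, 58.8 points at HH30 and 66.8 at HH34, so its difference was in area per base as well as width. A region present in both OFM lists alone lay 1612 bp away from it. The third region, chr2:15218227-15219176, went from 2.82 (OFM) to 62.8 (dorsal) at HH30 and from 5.74 to 57.7 at HH34. Its lead in area per base at HH30 was 5.75 points, against 60.0 points by area, while its dorsal peak there spanned 949 bp and its OFM peak 124 bp. At HH34 its lead in area per base was 39.1 points, and its q-rank lead was 36.7 points at HH30 and 39.5 at HH34.

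Next came chr3:54804668-54805262, at 2.39 and 1.55 in the OFM lists and 53.1 and 50.7 in the dorsal lists, in the order HH30 and HH34. The fifth, chr10:13874762-13875521, had nearly equal leads at the stages, 46.8 and 46.9 points. At chr21:1765354-1765776 the leads were 40.4 and 42.4 points, and peak widths were closer there (343 bp for the OFM peak at HH30 and 417 bp for the dorsal one). These 3 were in the lowest 15% of the OFM lists and of middle rank in dorsal retina.

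The remaining 6 had leads of 34.7 to 43.8 points. At chr7:9265502-9265886 the percentiles were 15.7 and 10.6 in OFM and 58.3 and 49.0 in dorsal retina, and at chr7:34916143-34917535 they were 36.4 and 38.1 against 74.5 and 79.3. The region chr3:66398503-66399004 went from 9.65 and 1.33 in OFM to 47.2 and 45.1. On chromosome 4, chr4:37546013-37546946 stood at 23.9 and 21.5 against 61.3 and 63.4, and chr4:37836220-37836787 at 7.77 and 5.27 against 44.4 and 40.4. Most of these repeated the pattern of a weak OFM peak and a dorsal peak of middle rank. The twelfth, chr10:16279599-16283022, was the strongest of them in both tissues, at 56.4 and 54.6 in OFM and at 92.9 and 89.3 in dorsal retina. Of the 12, 7 had a single peak in each list. With the area scores of a region's peaks summed, 12 of 12 kept a 10-point lead at both stages. Where OFM peaks were split, these leads were smaller than by the best peak. They were 43.4 points at HH30 for the first region and 19.1 and 25.3 for the twelfth. At chr4:37836220-37836787 they were 17.4 and 16.3. The size and order of the 12 thus depend in part on the use of the best peak. By q rank 12 of 12 stood higher in dorsal retina at both stages, and by area per base 11 did. The exception was chr4:37836220-37836787, with 10.2 points at HH30 and −15.1 points at HH34. A region of both dorsal lists alone lay within 50 kb of 4 of the 12, and a region of both OFM lists alone lay within 50 kb of 4.

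**Figure D2:**
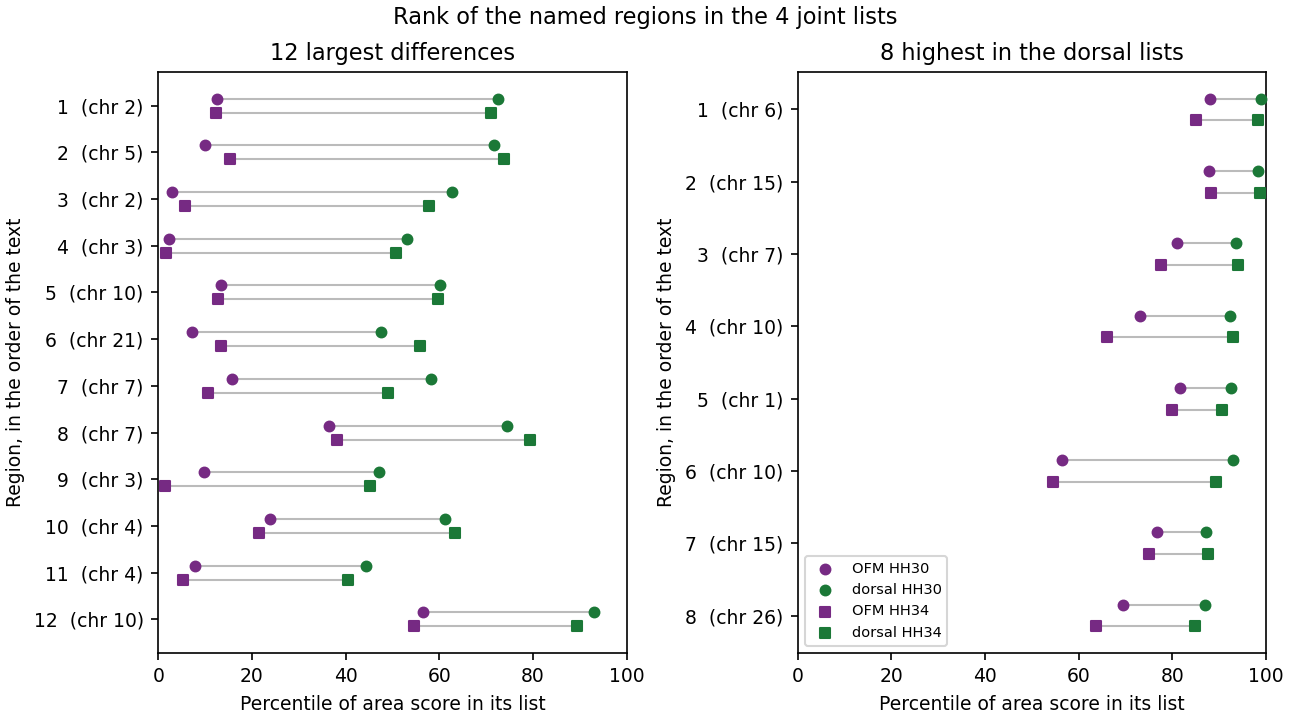
Percentile of the area score (x axis) of the 12 regions with the largest steady lead (left) and the 8 highest in the dorsal lists (right) in the 4 joint lists, with circles for HH30 and squares for HH34. Regions are numbered in the order of the text, each with its chromosome. On the left most OFM points lie below 25, while on the right OFM points lie between 54.6 and 88.3 and dorsal points between 84.9 and 98.8.

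The strongest of the dorsal-higher regions were wide, and in OFM most of them were broken into several peaks. The area score was taken as summed over peak width, so the top of a list favours wide regions. Their widths were not compared with those of equally ranked shared regions. Among all dorsal-higher regions 7.76% were wider than 1000 bp, against 26.9% of shared regions. Taken by the lower of its dorsal percentiles, the strongest dorsal-higher region was chr6:12473481-12479105. It stood at 98.8 and 98.2 in dorsal retina (HH30 and HH34) and at 88.1 and 85.0 in OFM. In the dorsal lists it was a single peak of 5619 and 5614 bp. In OFM the same stretch held 4 peaks at HH30 that covered 4082 bp together, and 5 at HH34 that covered 2613 bp. The rule compares the best peak of each list, so this region was compared by fragments in OFM. With the area scores of its peaks summed, its lead was 4.02 points at HH30 and 7.21 at HH34, under the 10 points of the rule.

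The second was chr15:12491669-12494890, at 98.2 and 98.8 in dorsal retina and 87.9 and 88.3 in OFM. Its −log10 q was 29.1 and 33.3 in dorsal retina against 21.7 and 23.1 in OFM. Its dorsal peaks of 3127 and 3222 bp stood against 3 and 2 OFM peaks, and by summed area its lead was 8.64 and 10.2 points. By area per base both of these strongest regions ranked lower in dorsal retina (by −9.97 and −13.96 points on chromosome 6, and by −7.84 and −5.51 on chromosome 15). Their q-rank leads were 2.35 and 4.26 points on chromosome 6, and 7.64 and 6.94 on chromosome 15. The ranking by area per base set the highest-ranking OFM fragment against a dorsal peak that spanned most of the stretch. It therefore cannot tell lower height in dorsal retina apart from the splitting of the OFM peaks.

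The other 6 included chr10:16279599-16283022, given above. At chr7:34888074-34890084 the percentiles were 93.7 and 94.0 in dorsal retina and 81.0 and 77.5 in OFM, and at chr10:16297672-16300682 they were 92.4 and 92.9 against 73.0 and 66.0. The region chr1:197036988-197039472 had 92.5 and 90.6 against 81.6 and 79.9, and chr26:4396495-4397732 had 87.0 and 84.9 against 69.5 and 63.7. In each of these the OFM peaks were themselves in the upper 50% of their lists. The region chr15:12512841-12514314 was the 1 of the 8 with a single peak in each list, at 87.2 and 87.6 in dorsal retina and 76.8 and 75.0 in OFM. By summed area 5 of the 8 kept a lead of 10 points at both stages, and by q rank 8 of 8 stood higher in dorsal retina. By area per base 5 of the 8 did at both stages, the third exception being chr1:197036988-197039472 with 3.10 points at HH30 and −13.1 at HH34.

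Over all 966, broken peaks were a small part. The regions with more OFM than dorsal peaks at both stages numbered 49 (5.07%), and 0 had fewer, against 0.482% and 0.502% of all shared regions. The rule favours such regions, since it takes the best single peak. The bases covered by OFM peaks over those covered by dorsal peaks had a median ratio of 0.786 in the 49 at HH30 and 0.772 at HH34. By summed area 17 of the 49 kept a 10-point lead at both stages, with a median lead of 8.82 and 6.96 points in place of 18.2 and 15. Of the 966, 875 (90.6%) had a single peak in each list, against 89.6% of shared regions, and by summed area 887 kept a 10-point lead at both stages and 963 a lead of any size.

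The threshold of 10 points cut through a continuous range. Just inside it were chr2:107793-108009, with leads of 11.3 and 10.0 points, chr17:8273622-8274406 (15.9 and 10.0) and chr3:16446918-16447573 (15.2 and 10.0). Just outside were chr26:2867072-2867505 (15.3 and 9.99), chr12:19770977-19771417 (16.3 and 9.99) and chr4:1094507-1095063 (9.99 and 18.7).

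Position in the genome was not used by the rule beyond the limit to chromosomes 1 to 28. Chromosomes 11 to 28, the small chromosomes of the chicken, held 342 of the 966 (35.4%), against 31.5% of shared regions and 25.4% of OFM-higher regions. Chromosomes 1 to 5 held 45.8%, against 50.3% and 54.1%. All shared regions of the small chromosomes were shifted the same way, with a median dorsal minus OFM difference of 0.498 points at HH30 and 0.183 at HH34, against −0.199 and −1.12 on chromosomes 1 to 5. With each difference centred on the median of its chromosome, the share on chromosomes 11 to 28 was 31.3%, close to that of shared regions.

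Single chromosomes ranged from 0.628 dorsal-higher regions per 100 shared regions on chromosome 18 (9 of 1433) to 2.96 on chromosome 25 (15 of 507), around 1.33 overall. Chromosome 25 held 1 OFM-higher region, a rate of 0.197 per 100. Its shared regions had the largest median shift at HH30, 1.89 points, with 1.67 at HH34. Centred on these medians chromosome 25 held 10 dorsal-higher regions, or 1.97 per 100, and 1 OFM-higher region. After centring, the rate on chromosome 21 was as high, 1.98 per 100 (21 of 1062). On chromosome 18 the OFM-higher rate was 2.09 per 100. Dorsal-higher regions outnumbered OFM-higher ones on 10 of 28 chromosomes, among them 15 (34 and 26) and 23 (19 and 9).

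**Figure D3:**
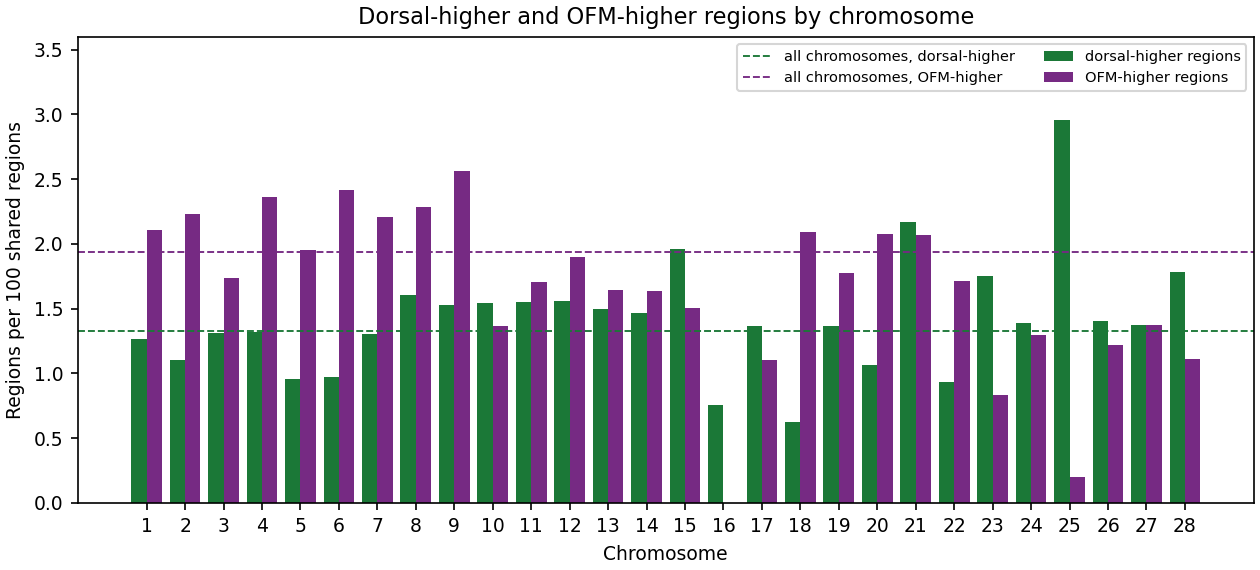
Bars give the number of dorsal-higher (green) and OFM-higher (purple) regions per 100 shared regions of each chromosome, and dashed lines the rates over chromosomes 1 to 28 (1.33 and 1.94). Chromosome 25 has the highest dorsal-higher rate, 2.96, and chromosome 18 the lowest, 0.628.

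Most of the dorsal-higher regions had no other within 50 kb, and a minority lay in chains. Joining those at most 50 kb apart put 265 of 966 (27.4%) into 104 chains of at least 2, against 25.5% of OFM-higher regions. Chains of at least 4 numbered 11 and held 61 dorsal-higher regions, while OFM-higher regions, though more numerous, formed 3 such chains with 14 regions. The 5 dorsal-higher chains with the most members lay on chromosomes 4, 10, 15, 9 and 21.

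The chain with the most members, 9 within chr4:987901-1098844 (110.9 kb), held 33 shared regions in all, of which 30 stood higher in dorsal retina at both stages. The 24 that were not members had a median lead of 6.16 points at HH30 and 5.62 at HH34. Within it, chr4:1039547-1041206 stood at 47.1 and 39.9 in OFM and at 77.6 and 79.0 in dorsal retina, and chr4:1044476-1046326 at 67.8 and 75.5 against 84.1 and 87.9. Among the 24 was a very strong and wide region, chr4:1047367-1056243, at 99.5 and 99.9 in dorsal retina and 92.7 and 91.9 in OFM, where a 10-point lead was out of reach. A further 5 regions had peaks in both dorsal lists alone and 0 in both OFM lists alone. Some of the 24 had larger leads than most members, such as chr4:1020288-1021146 (57.6 and 36.7 points) and chr4:1059808-1062154 (33.1 and 60.0), and were left out because their OFM percentile moved by 10 points or more. Most shared regions of the stretch thus leaned towards dorsal retina.

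In the chain of chr10:16279599-16329357 (49.8 kb, 7 members, 2 of them among the 8 strongest), 10 of 10 shared regions stood higher in dorsal retina at both stages, and 17 more regions had peaks in both dorsal lists alone. The 3 shared regions that were not members had median leads of 23.8 and 36.5 points, and had moved by 10 points or more in OFM between stages. The leads of the 7 members ran from 12.7 to 36.5 points at HH30 and from 12.3 to 34.7 at HH34. Among the 3 that were not members, chr10:16290367-16291941 stood at 90.7 and 90.2 in dorsal retina and at 62.1 and 34.4 in OFM. Members at the far end of the chain were chr10:16324904-16326220 (44.6 and 37.0 in OFM, 71.2 and 68.2 in dorsal retina) and chr10:16328815-16329357 (26.6 and 36.6, 55.7 and 62.9).

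On chromosome 15 a chain of 7 members spanned chr15:12488316-12546513 (58.2 kb) and included 2 of the 8 strongest regions. There 12 of 12 shared regions stood higher in dorsal retina at both stages, and 4 regions had peaks in both dorsal lists alone. The region chr15:12496482-12496707, with no dorsal peak at HH30, went the other way. It stood at 42.8 in OFM and 21.7 in dorsal retina at HH34. Beside the strongest, chr15:12490227-12491494 stood at 62.2 and 53.4 in OFM and at 84.7 and 86.5 in dorsal retina. The region chr15:12503141-12505153 had still larger leads, 34.1 and 47.0 points, and was left out because its OFM percentile went from 52.4 to 41.9. The genes around the chains were not looked up.

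The chains on chromosomes 9 and 21 were looser. In chr9:18036368-18193183, 6 members lay among 35 shared regions, of which 27 stood higher in dorsal retina at both stages. In chr21:3817604-3941711, 6 members lay among 41 shared regions, of which 23 did, and 1 of the 41 was OFM-higher. Over all 72877 shared regions the share higher in dorsal retina at both stages was 32.3%.

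**Figure D4:**
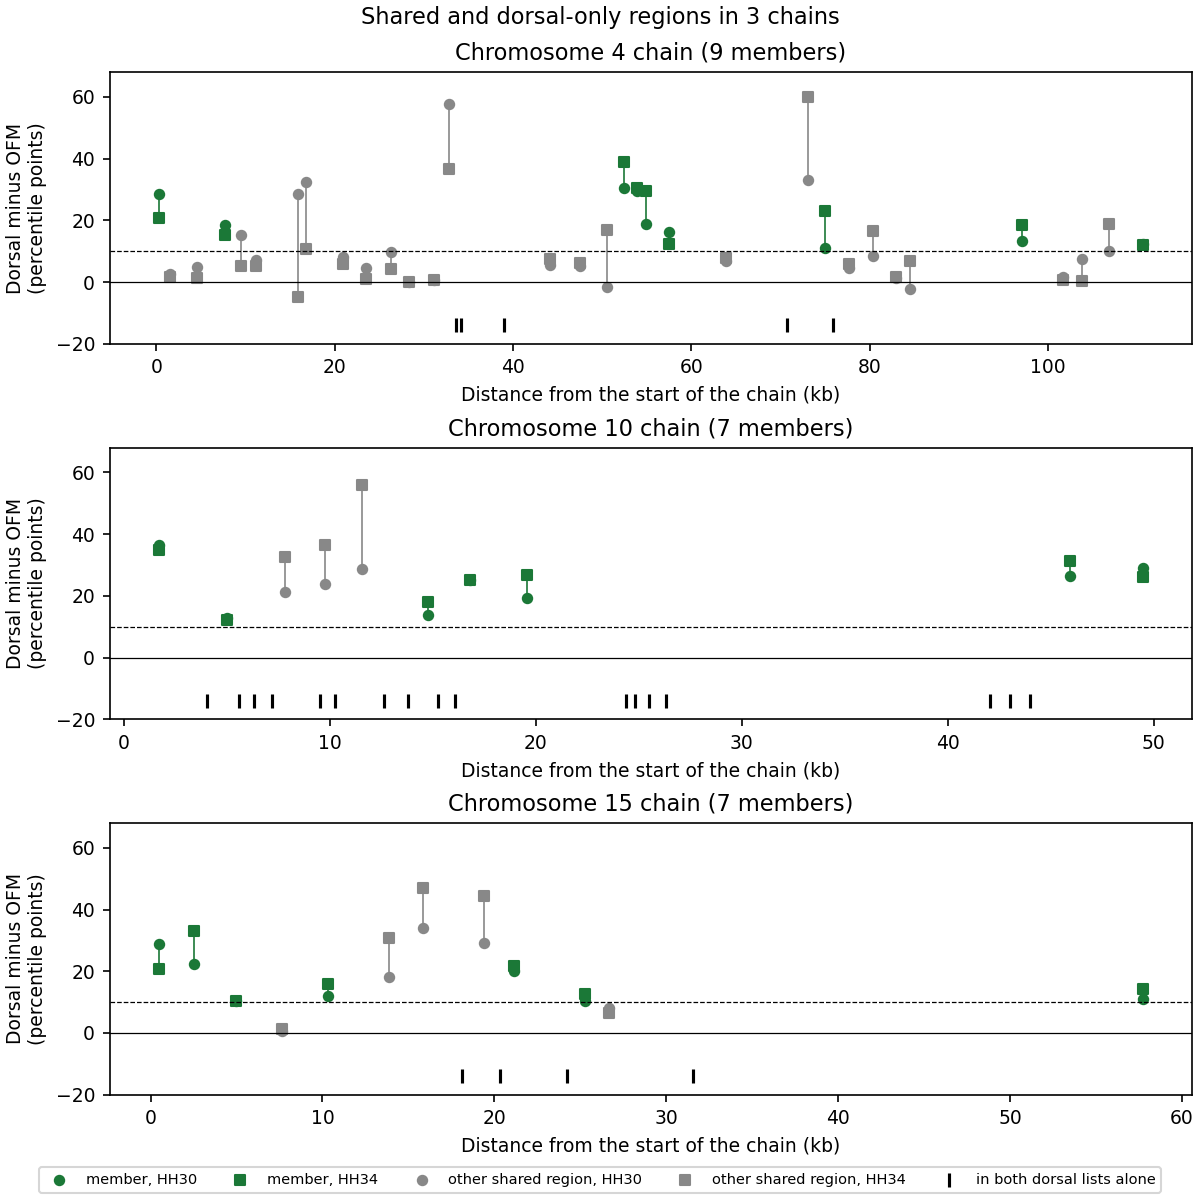
Dorsal minus OFM difference in percentile points (y axis) of shared regions along the chains on chromosomes 4, 10 and 15, by distance from the start of the chain in kb (x axis), with circles for HH30 and squares for HH34. Members are green, other shared regions grey, and black ticks mark regions with peaks in both dorsal lists alone. In the chains on chromosomes 10 and 15 every shared region lies above 0 at both stages, and on chromosome 4 30 of 33 do.

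The 5 densest windows of 500 kb took in the chain on chromosome 4, that on chromosome 15 and nearly all of that on chromosome 10, but neither the chain on chromosome 9 nor that on chromosome 21. The densest began at chr4:608035 and held 20 dorsal-higher and 0 OFM-higher regions among 129 shared regions (15.5%, against 1.33% overall). Of the 129, 109 (84.5%) stood higher in dorsal retina at both stages, and 18 further regions had peaks in both dorsal lists alone. Next was the window from chr15:12230812, with 9 of 26 shared regions dorsal-higher and 26 of 26 standing higher in dorsal retina at both stages. Both windows of 8 lay on chromosome 10, from 16281310 (8 of 27) and from 18968955 (8 of 62), and the fifth, from chr6:12193242, held 7 of 84. The densest windows of OFM-higher regions held 9 each, on chromosomes 1 and 6.

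Regions restricted to dorsal retina lay near dorsal-higher regions more often than near shared regions in general. A region with peaks in both dorsal lists and neither OFM list (1521 on chromosomes 1 to 28) lay within 50 kb of 341 of the 966 (35.3%), against 20.1% of all shared regions and 16.0% of OFM-higher regions. For regions of both OFM lists alone (2579) the shares were 22.5%, 26.4% and 37.2%. The number of shared regions within 50 kb, a measure of how crowded the neighbourhood is, had a median of 12 around dorsal-higher regions and 11 around shared regions. Without the 5 chains with the most members the share near a dorsal-only region was 33.3%. These shares rest on the same lists as the rule and were not tested.

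An OFM-higher region lay within 50 kb of 15.4% of the 966, less often than of the shared regions in neither set (18.2%). At 20 kb the shares were 5.69% and 8.37%, and at 100 kb 26.9% and 30.6%. Another dorsal-higher region lay within 50 kb of 27.4% of the 966, against 13.9% of the shared regions in neither set.

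The remaining shared regions around a dorsal-higher region leaned the same way, less so with distance. Those within 2 kb (541 regions) had a median difference of 2.46 points at HH30 and 1.53 at HH34, and 56.2% stood higher in dorsal retina at both stages. Between 5 and 10 kb the medians were 0.918 and 0.222 points, and between 20 and 50 kb 0.449 and −0.0379. Beyond 500 kb they were −0.305 and −1.29, and 24.3% stood higher at both stages. Without the 5 chains with the most members the medians within 2 kb were 2.22 and 1.52. Around OFM-higher regions the order was opposite, with −1.29 and −2.69 points within 2 kb and 0.168 and −0.344 beyond 500 kb. The lean of the neighbours was small beside the median leads of 16.4 and 15 points of the regions themselves. These differences were not centred on chromosomes, and all shared regions of chromosomes 1 to 5 had medians of −0.199 and −1.12. The surrounding regions also included those that led at both stages and failed only the stage limit. How far either shaped the course with distance was not tested.

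**Figure D5:**
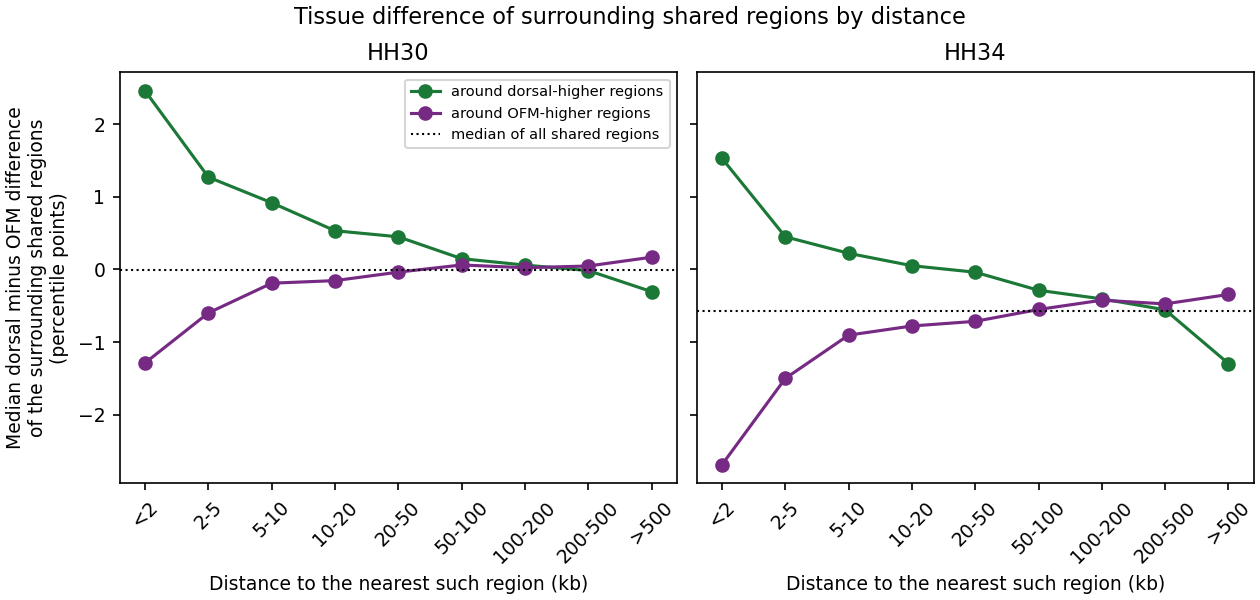
Median dorsal minus OFM difference (y axis, percentile points) of shared regions by distance in kb to the nearest dorsal-higher (green) or OFM-higher (purple) region (x axis, in unequal steps), at HH30 and HH34, with the regions of the set itself left out. The dotted line is the median of all shared regions. Within 2 kb the medians are 2.46 and 1.53 around dorsal-higher and −1.29 and −2.69 around OFM-higher regions. The curves meet near the dotted line at 100 to 500 kb. Beyond 500 kb the green curve lies below the purple (−0.305 and −1.29 against 0.168 and −0.344). Differences are not centred on chromosomes.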

How the data were processed

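Genrich was run by the authors on the 3 libraries of each group together, per the labels. The submitters' processing notes name Genrich 0.6, Bowtie2 2.3.4.3, SAMtools 1.6, cutadapt 1.16, deepTools 3.5.0 and the build GRCg6a (galGal6). Filters, settings and the treatment of Tn5 insertion positions are not given in the sources used here, and each can change peak width and number. The deposited lists hold per peak an area score, taken as the authors' signal over the peak, a second score capped at 1000, which was not used, and the −log10 of a q-value at the summit (a −log10 p column was not used). The scale of the area signal in the deposited lists is not recorded, so ranks alone were compared between lists. A 1 bp overlap joined peaks into regions. Percentile was 100 times 1 minus rank over list length.

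Named regions were the 12 with the largest smaller lead and the 8 with the highest lower dorsal percentile. The 5 chains with the most members (gaps of at most 50 kb) and the 5 densest 500 kb windows were also named. So were the 3 regions on either side of the threshold. Regions and all other choices were made with earlier results of these data known, and other regions within the chains were named after their values were seen. Analysis used Python 3.11.15, pandas 2.3.3 and numpy 2.4.6, and the merging and rule were tested on simulated data. Planned annotation, gene lists, sequence composition and motifs were not run, since no genome or annotation of this build was used. Read depth per library is not used here.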

Additional observations from a re-analysis of the deposited data

How the results depend on the processing

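Results were the count of dorsal-higher regions, their median leads, 4 shares and the densest window. Counts and medians were called moved past 1.5 times, and shares outside the 95% Wilson interval, which covers counting error alone. Ranking by q moved none of these results, although 627 of the 966 regions were kept in a list of 1051, and ranking by area per base kept 391 in a list of 1136.

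Other thresholds changed the count by construction. At 5 points there were 2561 regions, the HH34 median lead was 9.73 points, 32.1% lay near a dorsal-only region and the densest window held 35. At 15 points there were 367 regions, 88.6% with 1 peak in each list and 40.1% near a dorsal-only region. At 20 points there were 162, with median leads of 26.7 and 26.4 points, 32.1% on chromosomes 11 to 28, 85.8% with 1 peak in each list, 40.1% near a dorsal-only region and 8 in the densest window. A stage limit of 5 points left 387 and a densest window of 6. No stage limit gave 2802, of which 87.8% had 1 peak in each list and 31.3% lay near a dorsal-only region, with 40 in the densest window.

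The upper 50% of each list gave 438 regions (99 of the 966 among them), with 39.0% on chromosomes 11 to 28, 24.7% near a dorsal-only and 12.3% near an OFM-only region, against 11.0% and 15.7% of shared regions there, and a densest window of 13. Joining at 50% reciprocal overlap gave 39.9% near a dorsal-only and 35.8% near an OFM-only region, against 28.8% and 33.9% of shared regions, so the lower share near OFM-only regions turned around. It left 99.9% with 1 peak in each list. At equal list length 19.3% lay near an OFM-only region, against 23.1% of shared regions. Area per base gave 32.0% near a dorsal-only region. Regions with 1 peak in each list gave a share of 100% by definition. Distances of 20 and 100 kb gave 21.3% and 49.7% near a dorsal-only region, against 9.61% and 33.3% of shared regions, and 10.9% and 39.8% near an OFM-only region, against 12.4% and 43.8%.

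Of the settings added after the data had been seen, summed area raised the share with 1 peak in each list to 93.7%. Centring on chromosomes gave 31.3% on chromosomes 11 to 28. Leaving out the 5 chains with the most members gave a densest window of 11. The cause of these movements was not tested beyond the constructions named. No paired analysis was possible because peaks were called jointly per group and the lists carry no value per replicate, and leaving out replicates was not run for the same reason. Alternatives for annotation, motifs and composition were not run. Whether depth limits a peak in one tissue was not tested.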

Other observations

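The start of chromosome 4 was followed in steps of 250 kb, chosen after the values had been seen. The first 500 kb held 0 dorsal-higher regions among 16 and 34 shared regions per step, with median dorsal minus OFM differences between −0.671 and 0.310 points. From 500 to 750 kb, 750 to 1000 kb and 1000 to 1250 kb there were 5, 8 and 7 dorsal-higher regions, and the medians over all shared regions were 6.03, 7.80 and 4.91 points at HH30 and 3.39, 5.28 and 1.57 at HH34. In the next step the medians returned to 0.562 and 0.107 with 0 dorsal-higher regions among 34. None of the steps up to 1750 kb held an OFM-higher region.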
